A study of Mus musculus with 3 samples.

Results

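Lefty-high cells were the mouse embryonic stem cells with the most Lefty1 and Lefty2 transcript in each of 3 single-cell RNA-seq libraries. They were chosen by the value that names them. Among intact cells, ranked by Lefty1 plus Lefty2 UMIs (unique molecular identifiers, 1 per captured transcript) per 10000 UMIs, the top 10% of each library were taken as Lefty-high. The bottom 50% of the same library, called Lefty-low cells, served for comparison. An intact cell had at most 10% mitochondrially encoded UMIs and a total within 3-fold of its library's median. In all, 187 of 1863 intact cells were Lefty-high, and the whole series held 2222 cell barcodes. The split was 36 of 359 cells without FGF4, 71 of 706 cells at 5 ng/ml and 80 of 798 cells at 50 ng/ml, set against 179, 353 and 399 Lefty-low cells.

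The cells were E14tg2a, a mouse embryonic stem cell line, and all carried the genotype Fgf4 -/-, so no wild-type line stands beside them here. All were seeded in ES medium with LIF and then held for 24 h in N2B27, a serum-free medium, with Chiron (an inhibitor of GSK3) and 1 µg/ml heparin. FGF4 was added at 0, 5 or 50 ng/ml, and cells were detached with trypsin or Accutase, which of them for which library not being given. Each dose was 1 library, so dose and library cannot be told apart, and no test between cells or doses was made. Intervals of levels and ratios cover counting error only. Those of shares of cells cover only the draw of cells within 1 library.

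Nodal is a secreted ligand of the TGF-beta family that signals through activin receptors and the coreceptor Tdgf1 (Cripto) to phosphorylate Smad2 and Smad3. These enter the nucleus with Smad4 and partners such as Foxh1. Lefty1 and Lefty2 are secreted antagonists of Nodal and are themselves switched on by Nodal signalling, so their transcripts serve as a readout of the pathway as well as its brake. In mouse embryonic stem cells the pathway is active at a low level, and Smad7, Skil and Pmepa1 are among its widely used target genes. Fgf4 signals through ERK and moves naive stem cells towards lineage competence.

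The Lefty values that chose the cells are given here once. In Lefty-high cells the median was 5.73, 3.82 and 1.92 Lefty UMIs per 10000 at 0, 5 and 50 ng/ml, and the highest cell of each library reached 18.9, 18.4 and 11.7. The last cell inside the limit had 3.79, 2.09 and 1.11, and the first cell outside it 3.74, 2.09 and 1.10. As raw counts, the fewest Lefty UMIs in any Lefty-high cell were 16, 14 and 5, so at 50 ng/ml membership could rest on few UMIs. Within 10% of the limit lay 7, 2 and 7 cells on the inside and 5, 4 and 11 cells on the outside. The ranking showed no gap at the limit, so the cells are the upper end of a continuous range. Lefty-low cells reached at most 0.360, 0.218 and 0.0935, and 72, 198 and 348 of them had 0 Lefty UMIs. Lefty1 supplied 76.1%, 84.1% and 79.8% of the Lefty UMIs of Lefty-high cells. Ranking on Lefty1 alone would have kept 28, 63 and 67 of them, and ranking on Lefty2 alone 24, 44 and 48. Both genes are left out of everything that follows.

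The libraries held 42726514, 75184072 and 81409975 UMIs at 0, 5 and 50 ng/ml, of which Lefty-high cells gave 4098336, 6984392 and 7478231. Median UMIs per cell were 111366, 94246 and 91157.5 in Lefty-high cells against 103477, 99241 and 95726 in Lefty-low cells, and median mitochondrial shares were 5.60%, 5.19% and 5.60% against 5.19%, 5.18% and 5.49%. The libraries shared 0 barcodes, and Scrublet called 0, 1 and 0 Lefty-high cells doublets against 7, 4 and 11 Lefty-low cells. The pluripotency factor Pou5f1 (Oct4) was at 179.8, 357 and 344 CPM (UMIs per 1000000, summed over the cells of a group) in Lefty-high cells against 210.2, 402 and 391 CPM in Lefty-low cells. The feeder fibroblast markers reached 5 CPM for 0 of 10 genes in either group, with summed levels of 3.42, 6.30 and 4.55 CPM against 6.35, 5.36 and 5.10 CPM.

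Nodal, the ligand that Lefty proteins antagonise, was higher in Lefty-high cells at every dose, within a range that both groups shared. Its level was 50.3 CPM in Lefty-high cells against 39.9 CPM in Lefty-low cells without FGF4, 40.7 against 33.2 CPM at 5 ng/ml, and 42.7 against 27.3 CPM at 50 ng/ml. The ratios were 1.26 (1.08 to 1.47), 1.23 (1.07 to 1.40) and 1.56 (1.37 to 1.77), where brackets give the 95% counting interval. Per cell, Nodal at 50 ng/ml ran from 0 to 2.04 with a median of 0.366 in Lefty-high cells, and from 0 to 1.50 with a median of 0.218 in Lefty-low cells, in UMIs per 10000. The ranges of the groups overlapped at each dose, and medians were 0.455 against 0.333 without FGF4 and 0.360 against 0.243 at 5 ng/ml. With cells ranked on Lefty2 alone the Nodal ratio was 1.09, 1.02 and 1.15, so the size of the difference depended on the ranking. Nodal in Lefty-high cells had overlapping counting intervals over the 3 doses (43.6 to 57.6, 36.1 to 45.7 and 38.1 to 47.6 CPM).

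The other ligands and the enzymes that process them did not share one direction. Of 8 listed genes 4, 5 and 5 reached 5 CPM at 0, 5 and 50 ng/ml, of which 0, 1 and 2 were at least 1.5-fold higher and 1, 1 and 0 at least 1.5-fold lower. Over all genes of at least 5 CPM, 3.27%, 1.95% and 1.71% were that much higher and 3.39%, 1.83% and 1.11% that much lower. Nodal is 1 of these genes. Gdf3, a ligand of the same family, stood near 1 with ratios of 1.09 (0.987 to 1.21), 0.901 (0.830 to 0.976) and 0.992 (0.917 to 1.07). Pcsk6, a proprotein convertase that cleaves the Nodal precursor, was lower at every dose, with 41.2 CPM in Lefty-high cells against 53.8 CPM in Lefty-low cells without FGF4, 20.9 against 32.9 CPM at 5 ng/ml, and 23.8 against 29.4 CPM at 50 ng/ml. Its ratios were 0.766 (0.648 to 0.902), 0.636 (0.532 to 0.756) and 0.809 (0.687 to 0.948). Furin, the other such convertase, had ratios of 0.439 (0.285 to 0.652), 0.948 (0.715 to 1.24) and 2.50 (2.04 to 3.06), and at 50 ng/ml a single cell held 57.6% of the Furin UMIs of Lefty-high cells. With the top 5% of cells of each group left out for each gene, the Furin ratios were 0.540, 1.27 and 1.94. Tgfb1 was higher at 5 ng/ml alone by the 1.5-fold limit, at 6.87 CPM in Lefty-high cells against 4.11 CPM in Lefty-low cells.

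Receptors and intracellular transducers that reached 5 CPM lay within 1.5-fold of the level of Lefty-low cells. Among receptors and coreceptors, 5, 5 and 4 of 8 listed genes reached 5 CPM at 0, 5 and 50 ng/ml, and 0 were past 1.5-fold in either direction. Their median log2 ratios were 0.30, 0.19 and 0.04, beside -0.01 over all genes of at least 5 CPM in each library. Summed over the receptor list, the ratios were 1.18 (1.08 to 1.29), 0.899 (0.849 to 0.951) and 1.02 (0.971 to 1.07). The coreceptor Tdgf1 had ratios of 1.24 (1.10 to 1.39), 0.840 (0.786 to 0.897) and 0.987 (0.936 to 1.04), above 1 without FGF4 and below it at 5 ng/ml. Acvr2b, a type II receptor, had ratios of 0.987 (0.812 to 1.19), 1.15 (0.990 to 1.34) and 1.36 (1.18 to 1.56). Of the Smads and their partners, 7, 6 and 6 of 8 genes were measured, again with 0 past 1.5-fold, and the medians were 0.00, -0.02 and 0.03. Smad2 had ratios of 0.891, 0.901 and 0.921 and Smad4 of 1.00, 0.955 and 1.03. Ski, a repressor of Smad transcription, was the member with an interval above 1 at each dose, at 1.26 (1.08 to 1.46), 1.23 (1.08 to 1.40) and 1.39 (1.22 to 1.58).

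Among the feedback inhibitors and targets of the pathway, Smad7, Skil and Pmepa1 had ratios with intervals above 1 at all doses. Of 7 listed, 3, 4 and 4 reached 5 CPM, of which 2, 2 and 2 were at least 1.5-fold higher and 0, 1 and 1 lower, with median log2 ratios of 0.59, 0.57 and 0.58. Smad7, which blocks receptor access to Smad2 and Smad3, was at 124 CPM in Lefty-high cells against 86.1 CPM in Lefty-low cells without FGF4, 103 against 64.5 CPM at 5 ng/ml, and 103 against 60.7 CPM at 50 ng/ml. Its ratios were 1.44 (1.30 to 1.59), 1.60 (1.47 to 1.74) and 1.69 (1.56 to 1.84). Skil (SnoN), a Smad corepressor induced by the pathway, was at 62.7 CPM in Lefty-high cells against 36.8 CPM in Lefty-low cells without FGF4, 68.9 against 47.8 CPM at 5 ng/ml, and 63.0 against 48.0 CPM at 50 ng/ml, with ratios of 1.70 (1.47 to 1.96), 1.44 (1.30 to 1.60) and 1.31 (1.18 to 1.45). Pmepa1, a membrane protein that sequesters Smad2 and Smad3, was at 35.4 CPM in Lefty-high cells against 23.5 CPM in Lefty-low cells without FGF4, 23.3 against 15.2 CPM at 5 ng/ml, and 22.6 against 13.1 CPM at 50 ng/ml, with ratios of 1.51 (1.24 to 1.82), 1.54 (1.28 to 1.83) and 1.73 (1.44 to 2.06). Smad7 and Skil ran in opposite order across doses, Smad7 having its lowest ratio and Skil its highest without FGF4. Per cell, Smad7 at 50 ng/ml ran from 0.0955 to 2.67 with a median of 0.994 in Lefty-high cells, and from 0 to 2.79 with a median of 0.563 in Lefty-low cells, in UMIs per 10000. The groups overlapped, and the median of Lefty-high cells lay above the upper quartile of Lefty-low cells, 0.826. Fst (follistatin), an activin antagonist placed in the same list, was lower, with ratios of 0.874 (0.330 to 1.97), 0.622 (0.453 to 0.838) and 0.622 (0.469 to 0.812), and was under 5 CPM in both groups without FGF4. Cer1 had 0 UMIs in both groups of all libraries.

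**Figure D1:**
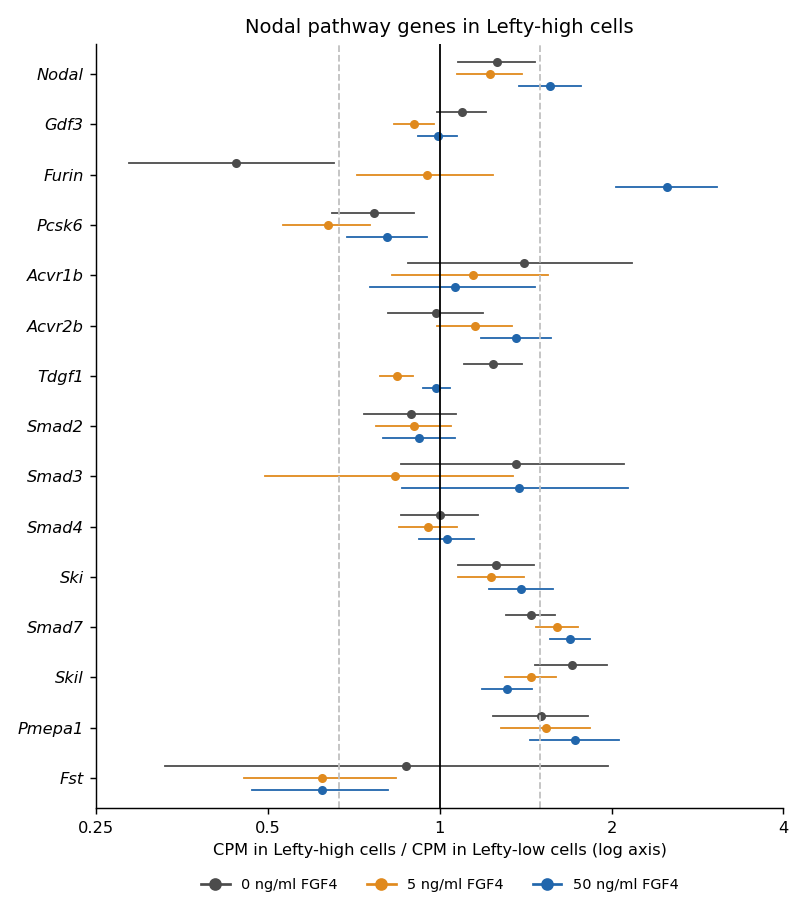
Ratio of CPM in Lefty-high cells to CPM in Lefty-low cells (x axis, log scale) for genes of the Nodal pathway, ordered from ligands to targets, with 95% counting intervals as bars and 1 point per FGF4 dose. Dashed lines mark 1.5-fold; Smad7, Skil and Pmepa1 lie right of 1 at all doses, while the intervals of Smad2 and Smad4 hold 1 at all doses.

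**Figure D2:**
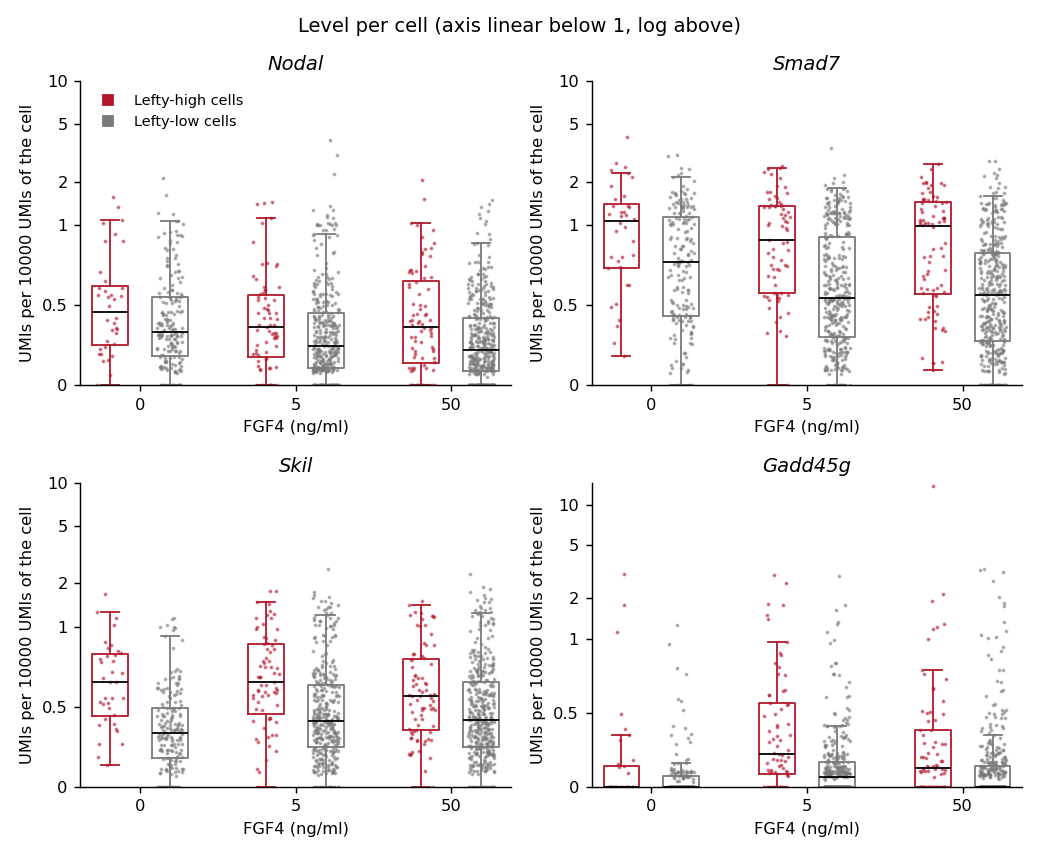
UMIs per 10000 UMIs of each cell (y axis, linear below 1 and log above) for 4 genes, Lefty-high cells left and Lefty-low cells right at each FGF4 dose; points are cells, boxes the quartiles and whiskers reach 1.5 box lengths. In Skil the median of Lefty-high cells without FGF4, 0.655, lies above the upper quartile of Lefty-low cells, 0.494, in Nodal the boxes overlap, and for Gadd45g a few cells lie far above the rest.

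Few genes differed by much, counted with the genes of the pathway lists. At least 1.5-fold with at least 20 CPM in the higher group, 49 genes were higher and 80 lower of 5652 without FGF4 (2.28% of genes in all, 0.867% higher and 1.42% lower). At 5 ng/ml 40 were higher and 47 lower of 5605 (1.55%, with 0.714% and 0.839%). At 50 ng/ml 34 were higher and 26 lower of 5487 (1.09%, with 0.62% and 0.474%). With levels taken as the mean share per cell, the split at 50 ng/ml was 21 higher and 33 lower. Part of the calls rested on few cells at each dose. Without the top 5% of cells of each gene, 33 of the 49 higher and 46 of the 80 lower genes were past the limit without FGF4, 17 of 40 and 33 of 47 at 5 ng/ml, and 21 of 34 and 15 of 26 at 50 ng/ml. Of 5191 genes of at least 20 CPM in every library, 146 were higher at all 3 doses with each counting interval above 1 (2.81%) and 200 were lower (3.85%). At least 1.5-fold at all 3 doses, 7 genes were higher (0.135%) and 1 was lower (0.0193%). Among the 7 were Pmepa1, Trh, Ap3b2, Ddit4, Slc16a3 and Gadd45g, and the 1 was Aard.

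Genes around the Lefty pair were compared too. On mouse chromosome 1 (mm10, plus strand), Lefty2 lies at chr1:180893108-180899103 and Lefty1 at chr1:180935022-180938400. Tmem63a, 3944 bases past the end of Lefty1 on the same strand, was at low levels of 2.93 CPM in Lefty-high cells against 1.12 CPM in Lefty-low cells without FGF4, 2.43 against 0.844 CPM at 5 ng/ml, and 3.08 against 0.484 CPM at 50 ng/ml, and its ratios were 2.60 (1.18 to 5.45), 2.88 (1.50 to 5.37) and 6.35 (3.31 to 12.3). Whether UMIs counted for Tmem63a came from transcripts begun at Lefty1, a gene that chose the cells, was not tested. Ephx1, a minus-strand gene 37810 bases from Lefty1 that encodes an epoxide hydrolase, had ratios of 2.77 (1.88 to 4.04), 1.89 (1.26 to 2.80) and 0.885 (0.475 to 1.54). Acbd3, 138904 bases from Lefty2 on the other side, had 1.24 (1.06 to 1.46), 1.19 (1.04 to 1.35) and 1.23 (1.09 to 1.40). Sde2, 24995 bases from Lefty2, had ratios of 0.904, 1.10 and 1.00, and H3f3a, 79165 bases away, 1.04, 1.06 and 1.08. Of 14 annotated neighbours within 200 kb, 5 reached 5 CPM in every library. Chromosome 1 as a whole held 0.987, 0.999 and 1.01 times the share of UMIs in Lefty-high cells that it held in Lefty-low cells.

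Several of the other genes higher at all doses are known for roles in energy supply and stress. Bnip3, a mitophagy receptor, was at 79.5 CPM in Lefty-high cells against 23.5 CPM in Lefty-low cells without FGF4, 72.4 against 48.3 CPM at 5 ng/ml, and 67.9 against 48.4 CPM at 50 ng/ml, with ratios of 3.38 (2.93 to 3.90), 1.50 (1.36 to 1.66) and 1.40 (1.27 to 1.55). Slc16a3, a lactate exporter, had ratios of 2.95 (2.21 to 3.90), 1.90 (1.62 to 2.22) and 1.53 (1.32 to 1.78), and Ddit4, an inhibitor of mTORC1, 1.74 (1.45 to 2.08), 1.60 (1.35 to 1.89) and 1.78 (1.52 to 2.08). A single cell held 37.6% of the Ddit4 UMIs of Lefty-high cells at 50 ng/ml, and without the top 5% of cells the ratio was 1.21. For Bnip3 and Slc16a3 the ratio was highest without FGF4 and its interval there did not overlap those at 50 ng/ml.

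Of the others, Sdc4, Cd24a and Trh encode surface or secreted molecules, Ap3b2 an adaptor subunit and Ptp4a3 a phosphatase. Sdc4, a heparan sulfate proteoglycan, had ratios of 1.92 (1.71 to 2.16), 1.47 (1.32 to 1.64) and 1.54 (1.39 to 1.69). Cd24a, a surface glycoprotein, had 1.50 (1.32 to 1.71), 1.45 (1.27 to 1.64) and 1.63 (1.42 to 1.88). Trh, the precursor of thyrotropin-releasing hormone, had 3.57 (2.93 to 4.35), 1.94 (1.76 to 2.14) and 1.59 (1.44 to 1.75), with 34.6% of its UMIs in Lefty-high cells without FGF4 in a single cell and a ratio of 3.15 there without the top 5% of cells. Ap3b2, the neuronal beta subunit of the AP-3 adaptor, was at 56.6 CPM in Lefty-high cells against 26.6 CPM in Lefty-low cells without FGF4, 26.1 against 12.3 CPM at 5 ng/ml, and 23.4 against 8.25 CPM at 50 ng/ml, with ratios of 2.13 (1.82 to 2.49), 2.12 (1.78 to 2.53) and 2.84 (2.35 to 3.42). Ptp4a3, a phosphatase, had 1.48 (1.28 to 1.72), 1.80 (1.63 to 2.002) and 1.45 (1.30 to 1.62).

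Gadd45g, a growth arrest and DNA damage response gene, led these genes by its lowest ratio over the doses, at 22.2 CPM in Lefty-high cells against 5.86 CPM in Lefty-low cells without FGF4, 42.4 against 13.9 CPM at 5 ng/ml, and 40.5 against 13.6 CPM at 50 ng/ml. Its UMIs were spread unevenly over cells. The ratios were 3.79 (2.85 to 5.01), 3.04 (2.63 to 3.52) and 2.98 (2.58 to 3.44). Without FGF4, 33.3% of Lefty-high cells had a Gadd45g UMI, against 32.4% of Lefty-low cells. At 5 ng/ml the shares were 77.5% against 52.1%, and at 50 ng/ml 63.8% against 42.1%. Single cells held 38.5% and 34.0% of its UMIs in Lefty-high cells at 0 and 50 ng/ml, and without the top 5% of cells the ratios were 2.85, 3.42 and 2.70. Ranked on Lefty2 alone, they were 1.74, 2.05 and 0.963, so at 50 ng/ml the direction depended on the ranking.

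Upstream sequences were looked up for the 12 genes leading in this direction, to show whether the letters bound by the pathway's factors recur before their start sites. NCBI RefSeq windows on GRCm38.p6 were at hand for 7 of the 12 and for Nodal, and the 250 bases before the start were searched on both strands for the Smad motif CAGAC and the Foxh1 motif AATNCACA, which do not overlap. The Smad motif was in 3 of the 7 windows and the Foxh1 motif in 0, while 42.2% and 3.18% of all 32851 windows of that length held them. The share of windows with the Smad motif was near that of any window. A pair is shown, 5′ to 3′ in the direction of the gene, with the Smad motif in capitals (here read from the other strand as GTCTG): Gadd45g at chr13:51846425-51846674 (plus strand) with 1 match and Nodal at chr10:61417722-61417971 (plus strand) with 0.
Gadd45g: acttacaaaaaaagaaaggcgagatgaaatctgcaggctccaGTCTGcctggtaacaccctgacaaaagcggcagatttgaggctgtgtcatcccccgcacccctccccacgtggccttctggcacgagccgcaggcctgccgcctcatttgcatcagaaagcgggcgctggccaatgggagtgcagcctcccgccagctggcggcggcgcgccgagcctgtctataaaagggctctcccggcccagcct
Nodal: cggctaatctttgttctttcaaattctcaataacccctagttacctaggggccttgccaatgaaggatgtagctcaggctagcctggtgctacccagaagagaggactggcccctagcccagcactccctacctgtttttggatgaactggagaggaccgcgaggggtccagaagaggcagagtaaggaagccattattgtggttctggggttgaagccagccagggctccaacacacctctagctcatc
A match is a run of letters and not a shown binding site, and a window without one says nothing of factors bound elsewhere.

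**Figure D3:**
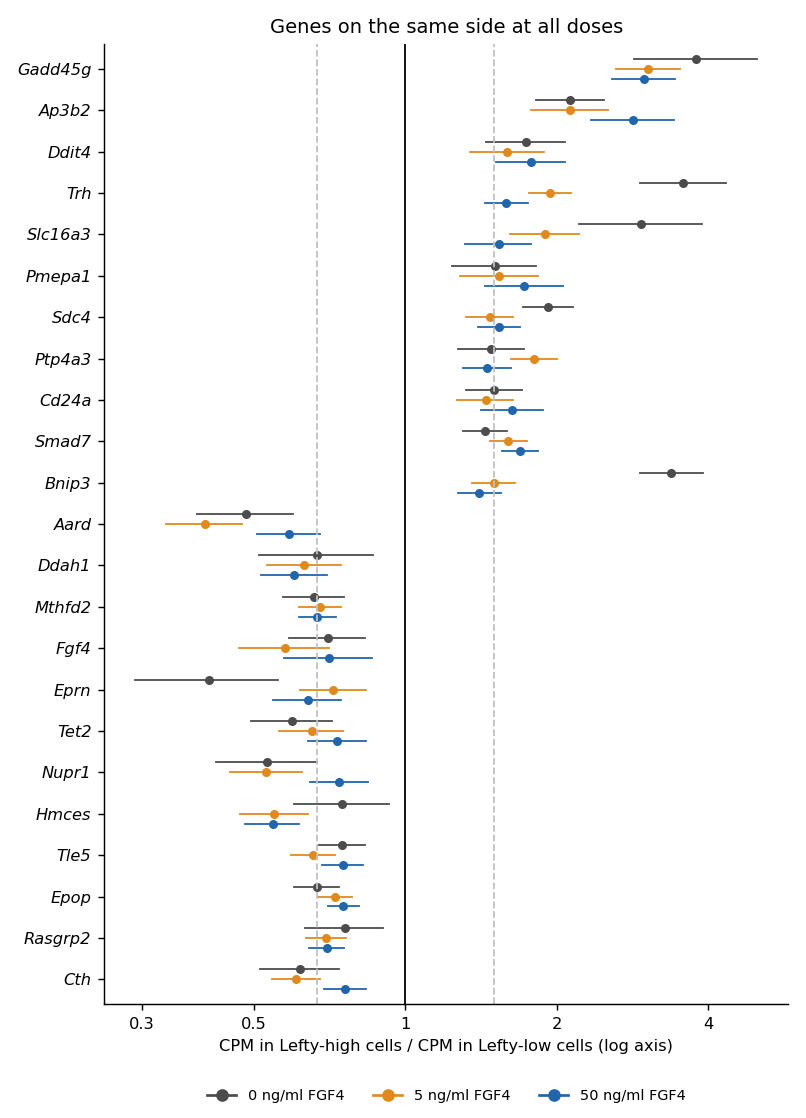
Ratio of CPM in Lefty-high cells to CPM in Lefty-low cells (x axis, log scale) for leading genes in each direction, with 95% counting intervals as bars and 1 point per FGF4 dose. Gadd45g and Ap3b2 lie above 2 at all doses, Trh, Slc16a3 and Bnip3 have their highest ratio without FGF4, and Aard lies left of the dashed line at 1.5-fold lower at all doses.

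The genes lower at all doses were of several kinds, metabolic enzymes and chromatin proteins among them. Aard was at 22.4 CPM in Lefty-high cells against 46.5 CPM in Lefty-low cells without FGF4, 20.6 against 51.6 CPM at 5 ng/ml, and 27.9 against 47.6 CPM at 50 ng/ml, with ratios of 0.482 (0.385 to 0.598), 0.399 (0.335 to 0.473) and 0.587 (0.507 to 0.678). Mthfd2, an enzyme of mitochondrial folate metabolism, had nearly the same ratio at each dose, at 0.658 (0.571 to 0.756), 0.677 (0.614 to 0.745) and 0.669 (0.614 to 0.728). Cth, which makes cysteine from cystathionine, had 0.619 (0.515 to 0.738), 0.607 (0.542 to 0.677) and 0.759 (0.690 to 0.835), and the stress regulator Nupr1 0.532 (0.420 to 0.667), 0.530 (0.447 to 0.623) and 0.739 (0.646 to 0.844). Tet2, which oxidises 5-methylcytosine, was at 32.0 CPM in Lefty-high cells against 53.6 CPM in Lefty-low cells without FGF4, 30.5 against 46.8 CPM at 5 ng/ml, and 35.3 against 48.1 CPM at 50 ng/ml, with ratios of 0.597 (0.494 to 0.716), 0.651 (0.562 to 0.751) and 0.733 (0.642 to 0.834). Its relative Tet1 had ratios of 1.09 (1.01 to 1.17), 0.815 (0.765 to 0.869) and 0.939 (0.885 to 0.995). Epop, a subunit bound to Polycomb repressive complex 2, had 0.666 (0.600 to 0.738), 0.727 (0.672 to 0.784) and 0.753 (0.702 to 0.808), and Hmces, which shields abasic sites in DNA, 0.749 (0.600 to 0.928), 0.549 (0.469 to 0.640) and 0.545 (0.481 to 0.615). Tle5, a short corepressor of the Groucho family, had 0.749, 0.656 and 0.751, Ddah1 0.668, 0.630 and 0.602, Eprn 0.408, 0.720 and 0.640 and Rasgrp2 0.759, 0.695 and 0.698.

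Fgf4 itself was among these genes. Its transcript was at 37.1 CPM in Lefty-high cells against 52.9 CPM in Lefty-low cells without FGF4, 15.0 against 26.1 CPM at 5 ng/ml, and 15.0 against 21.2 CPM at 50 ng/ml, with ratios of 0.701 (0.588 to 0.832), 0.577 (0.467 to 0.706) and 0.706 (0.574 to 0.861). The labels do not say what the mutation removes, and 3′ tags outside it would still be counted, so the value does not check the genotype. The direction was not stable at 50 ng/ml: with cells chosen and read after thinning to 25000 UMIs the ratio was 1.13.

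Naive pluripotency genes, which mark the ground state of mouse embryonic stem cells, were slightly lower in Lefty-high cells, with a mixed pattern by gene. Of 22 listed genes, 22, 20 and 20 reached 5 CPM, and their median log2 ratios were -0.15, -0.20 and -0.12, beside -0.01 over all genes. Counting intervals lay below 1 for 12, 13 and 9 genes, where 12.8%, 14.0% and 12.5% of all genes of at least 5 CPM did, and above 1 for 0, 1 and 3, where 10.2%, 11.2% and 10.1% of all genes did. Past 1.5-fold, 2 were lower at each dose and 1 was higher, at 50 ng/ml. Summed over the list, the level in Lefty-high cells was 0.916, 0.932 and 0.999 times that of Lefty-low cells. Per cell after thinning to 25000 UMIs, the median sum was 138.5, 128 and 132 UMIs in Lefty-high cells against 149, 139 and 132 in Lefty-low cells, and the ranges overlapped.

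Klf4, a naive factor downstream of LIF, had the lowest ratio of the list, without FGF4. It was at 34.9 CPM in Lefty-high cells against 77.5 CPM in Lefty-low cells without FGF4, 33.8 against 45.6 CPM at 5 ng/ml, and 27.3 against 34.9 CPM at 50 ng/ml, with ratios of 0.450 (0.377 to 0.535), 0.741 (0.643 to 0.849) and 0.782 (0.672 to 0.907). Its median per cell without FGF4 was 0.254 UMIs per 10000 in Lefty-high cells against 0.581 in Lefty-low cells. Zfp42 (Rex1), a classic naive marker, was lower at each dose, with 357 CPM in Lefty-high cells against 482 CPM in Lefty-low cells without FGF4, 465 against 592 CPM at 5 ng/ml, and 428 against 522 CPM at 50 ng/ml, and ratios of 0.740 (0.700 to 0.782), 0.785 (0.757 to 0.815) and 0.820 (0.790 to 0.851). Dppa2, which primes early embryonic genes, was lower as well, at 0.662 (0.580 to 0.753), 0.725 (0.668 to 0.786) and 0.833 (0.776 to 0.893), and Klf5 at 0.891 (0.798 to 0.993), 0.721 (0.661 to 0.785) and 0.815 (0.757 to 0.875). These genes shared a direction over doses, and Klf4, Zfp42 and Dppa2 were nearest to 1 at 50 ng/ml.

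Nanog, a core factor of naive identity, was at 215 CPM in Lefty-high cells against 292 CPM in Lefty-low cells without FGF4, 135 against 151 CPM at 5 ng/ml, and 99.1 against 108 CPM at 50 ng/ml. Its ratios were 0.738 (0.687 to 0.792), 0.891 (0.831 to 0.955) and 0.917 (0.847 to 0.992). Its direction at 50 ng/ml was not stable, since the median per cell was 0.966 in Lefty-high cells against 0.856 UMIs per 10000 in Lefty-low cells. The ratio there was 1.01 without the top 5% of cells, 1.00 when ranked on Lefty1 alone and 1.05 when thinned.

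Other naive genes were low at some doses and not at others. Nr0b1 (Dax1) had an interval that held 1 without FGF4 and was lower at 5 and 50 ng/ml, at 60.8 CPM in Lefty-high cells against 61.7 CPM in Lefty-low cells without FGF4, 56.7 against 101 CPM at 5 ng/ml, and 79.0 against 122 CPM at 50 ng/ml. Its ratios were 0.985 (0.856 to 1.13), 0.564 (0.507 to 0.626) and 0.649 (0.595 to 0.707). Nr5a2, a nuclear receptor that keeps Pou5f1 on, followed the same order, with ratios of 0.952 (0.823 to 1.10), 0.646 (0.548 to 0.759) and 0.634 (0.538 to 0.743). Tbx3 took the other order, with 0.724 (0.649 to 0.807), 0.985 (0.889 to 1.09) and 1.17 (1.05 to 1.31), below 1 without FGF4 and above it at 50 ng/ml. Dppa3 (Stella) did likewise, with 69.3 CPM in Lefty-high cells against 86.5 CPM in Lefty-low cells without FGF4, 39.1 against 34.1 CPM at 5 ng/ml, and 46.7 against 30.1 CPM at 50 ng/ml and ratios of 0.802 (0.705 to 0.909), 1.15 (1.00 to 1.31) and 1.55 (1.37 to 1.75). Without FGF4 its median per cell ran the other way, at 0.454 UMIs per 10000 in Lefty-high cells against 0.260 in Lefty-low cells. The intervals of Esrrb, Tdh and Sall1 held 1 at all doses, with Esrrb ratios of 1.06, 0.970 and 1.00. Whether these ratios differ between doses was not tested, as each dose was 1 library.

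**Figure D4:**
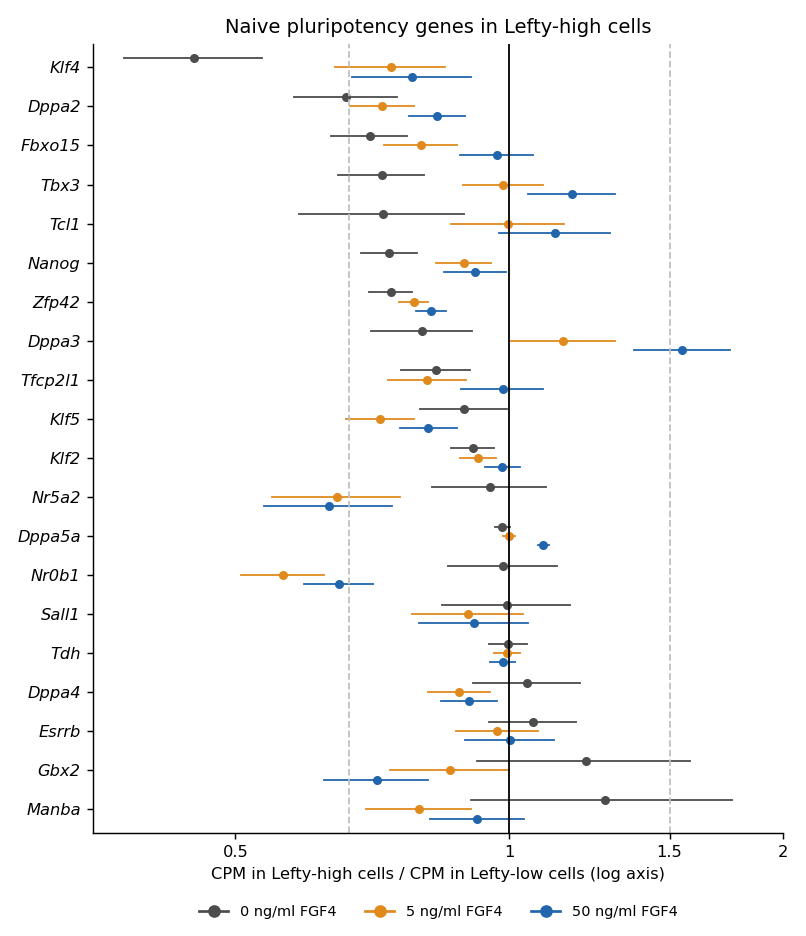
Ratio of CPM in Lefty-high cells to CPM in Lefty-low cells (x axis, log scale) for the naive genes of at least 5 CPM in every library, ordered by the ratio without FGF4, with 95% counting intervals as bars and 1 point per FGF4 dose. Klf4 is lowest without FGF4, Nr0b1 and Nr5a2 are below 1 at 5 and 50 ng/ml, and Dppa3 is above 1.5 at 50 ng/ml.

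General pluripotency genes, shared by naive and later states, had medians of -0.11, -0.25 and -0.18 over 9 measured genes, with 0 past 1.5-fold in either direction. Intervals were below 1 for 4, 8 and 6 of the 9, against 12.8%, 14.0% and 12.5% of all genes of at least 5 CPM. Pou5f1 had ratios of 0.855 (0.790 to 0.925), 0.888 (0.850 to 0.926) and 0.879 (0.842 to 0.916). Sox2, the partner of Pou5f1 on DNA, had ratios of 0.976 (0.924 to 1.03), 1.31 (1.254 to 1.36) and 1.21 (1.16 to 1.27), and was higher at 5 and 50 ng/ml. Formative genes, which come up as cells leave the naive state, had medians of 0.11, 0.09 and 0.07 over 11, 13 and 13 of 15 genes. Of these 2, 0 and 0 were at least 1.5-fold higher and 2, 1 and 1 lower. Over all genes of at least 5 CPM, 3.27%, 1.95% and 1.71% were that much higher and 3.39%, 1.83% and 1.11% that much lower. Without FGF4 the higher formative genes were Lef1 and Sox4 and the lower ones Foxd3 and Dnmt3l. Foxd3, a forkhead factor of this transition, was the member lower past 1.5-fold at every dose, at 0.976 CPM in Lefty-high cells against 7.58 CPM in Lefty-low cells without FGF4, 0.430 against 6.83 CPM at 5 ng/ml, and 4.01 against 12.6 CPM at 50 ng/ml. Its ratios were 0.129 (0.0347 to 0.337), 0.0629 (0.0129 to 0.186) and 0.318 (0.212 to 0.460), and a Foxd3 UMI was present in 2 Lefty-high cells (2.82%, exact 95% interval 0.343 to 9.81%) against 120 Lefty-low cells (34.0%, 29.1 to 39.2%) at 5 ng/ml. Otx2, Pou3f1 and Fgf5 had counting intervals that held 1, or began just above it in Fgf5 at 50 ng/ml, at levels of at most 15.9 CPM.

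Primitive streak genes, which Nodal and Wnt signals switch on in the embryo, were measured at low levels. Summed over the 12 listed genes, they were at 21.2, 38.2 and 40.8 CPM in Lefty-high cells against 11.6, 17.4 and 21.7 CPM in Lefty-low cells. T (Brachyury) was at 2.68 CPM in Lefty-high cells against 2.54 CPM in Lefty-low cells without FGF4, 21.2 against 6.40 CPM at 5 ng/ml, and 20.1 against 9.45 CPM at 50 ng/ml. Its ratios were 1.06 (0.497 to 2.05), 3.31 (2.68 to 4.09) and 2.12 (1.74 to 2.57), and at 50 ng/ml a single cell held 46.0% of the UMIs, with a ratio of 1.48 without the top 5% of cells. Wnt3, a ligand needed to form the streak, was at 11.0 CPM in Lefty-high cells against 1.91 CPM in Lefty-low cells without FGF4, 3.01 against 0.436 CPM at 5 ng/ml, and 1.47 against 0.611 CPM at 50 ng/ml, with ratios of 5.76 (3.67 to 9.08), 6.90 (3.43 to 14.1) and 2.41 (1.06 to 5.10). A Wnt3 UMI was present in 20 Lefty-high cells (55.6%, exact 95% interval 38.1 to 72.1%) against 32 Lefty-low cells (17.9%, 12.6 to 24.3%) without FGF4. Fgf8 had ratios of 1.92 (0.536 to 5.74), 4.30 (1.58 to 11.4) and 5.25 (1.96 to 14.1) at under 2 CPM, and Eomes of 1.39 (0.614 to 2.85), 1.14 (0.829 to 1.54) and 1.86 (1.46 to 2.35). The defining streak markers Mixl1, Gsc, Mesp1, Lhx1 and Foxa2 stayed under 3 CPM in both groups of all libraries. Of the sums in Lefty-high cells, Wnt3 gave 11.0 of 21.2 CPM without FGF4. T gave 21.2 of 38.2 CPM at 5 ng/ml and 20.1 of 40.8 CPM at 50 ng/ml. Per cell after thinning, the median sum was 0, 1 and 0 UMIs in Lefty-high cells and 0 UMIs in Lefty-low cells at each dose. The share of cells above the upper quartile of their library was 8.33%, 21.1% and 17.5% against 4.47%, 12.7% and 14.0%. The exact 95% intervals of the groups overlapped at each dose.

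Signals beside Nodal differed in a few genes. Bmp4 was at 3.17 CPM in Lefty-high cells against 4.98 CPM in Lefty-low cells without FGF4, 7.45 against 21.4 CPM at 5 ng/ml, and 11.2 against 36.1 CPM at 50 ng/ml, with ratios of 0.636 (0.328 to 1.14), 0.348 (0.258 to 0.462) and 0.311 (0.246 to 0.388). Id3, a BMP target, had 1.27 (0.994 to 1.61), 0.580 (0.503 to 0.665) and 0.817 (0.739 to 0.902), and Id1 1.30 (0.628 to 2.50), 0.496 (0.315 to 0.749) and 0.640 (0.487 to 0.829), so these 3 were lower at 5 and 50 ng/ml and not set apart by counting error without FGF4. Of the Wnt targets, Sp5 had 1.65 (1.41 to 1.92), 1.33 (1.17 to 1.51) and 1.08 (0.948 to 1.22) and Lef1 2.99 (2.14 to 4.14), 1.39 (1.27 to 1.52) and 1.11 (1.02 to 1.20), both with ratios that were lowest at 50 ng/ml, while Axin2 was at 0.811 (0.666 to 0.982), 1.02 (0.894 to 1.16) and 0.986 (0.867 to 1.12). The Wnt list had medians of 0.17, 0.27 and 0.07 over 8, 11 and 10 of 14 listed genes that were measured. Of these 2, 3 and 1 were at least 1.5-fold higher and 0 lower. The higher ones were Sp5 and Lef1 without FGF4, Cdx2, Sp8 and T at 5 ng/ml, and T at 50 ng/ml. Over all genes of at least 5 CPM, 3.27%, 1.95% and 1.71% were that much higher and 3.39%, 1.83% and 1.11% that much lower. Without FGF4 the Wnt median was -0.11 over members of at least 20 CPM and -0.06 when thinned. At 50 ng/ml it was -0.01 for the top 20% of cells. ERK targets had medians of 0.04, -0.12 and -0.18 over 8, 14 and 15 of 20 listed genes that were measured, with 1, 0 and 1 at least 1.5-fold higher and 1, 3 and 3 lower. Among these Etv4 was at 36.7 CPM in Lefty-high cells against 56.7 CPM in Lefty-low cells at 5 ng/ml and 60.8 CPM in Lefty-high cells against 98.1 CPM in Lefty-low cells at 50 ng/ml, with ratios of 0.647 (0.566 to 0.737) and 0.620 (0.561 to 0.683). Myc had 0.612 (0.460 to 0.800) and 0.637 (0.508 to 0.789), whereas Spry4, Dusp6 and Etv5 were within 1.5-fold at these doses. The ERK targets at least 1.5-fold higher were Ier3 without FGF4 and Egr1 at 50 ng/ml. The shares over all genes given for the Wnt list stand beside the ERK counts too. Ranked on Lefty2 alone, the ERK medians were -0.11, 0.01 and 0.03, of the other sign at each dose.

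G2/M genes differed in opposite directions between the dose without FGF4 and the doses with it, while the median log2 ratio of the S-phase list was below 0 without FGF4 and at 5 ng/ml and above it at 50 ng/ml. Of 26 G2/M genes, all measured, 16 had intervals above 1 and 1 below it without FGF4, against 0 above and 16 below at 5 ng/ml and again at 50 ng/ml. Their median log2 ratios were 0.17, -0.14 and -0.13, and 0 were past 1.5-fold. Among all genes of at least 5 CPM, 10.2%, 11.2% and 10.1% had intervals above 1 and 12.8%, 14.0% and 12.5% below it. Nusap1, a spindle protein, had ratios of 1.43 (1.32 to 1.55), 0.723 (0.667 to 0.783) and 0.808 (0.747 to 0.873), and Ube2c, which acts in the exit from mitosis, 1.21 (1.15 to 1.26), 0.784 (0.751 to 0.817) and 0.809 (0.778 to 0.841). Of 25 S-phase genes, 0, 3 and 12 had intervals above 1 and 12, 9 and 3 below it, with medians of -0.15, -0.03 and 0.07 and ratios of the summed levels of 0.901, 0.981 and 1.04. Pcna, the replication clamp, had ratios of 0.820 (0.768 to 0.875), 1.01 (0.965 to 1.05) and 1.11 (1.06 to 1.15). Cdc6, which loads the replicative helicase, was below 1 at all doses, with 0.738 (0.617 to 0.879), 0.651 (0.564 to 0.748) and 0.851 (0.748 to 0.965).

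Read per cell after thinning to 25000 UMIs, which lost 0 intact cells, the groups overlapped over most of their range. The summed G2/M UMIs ran from 23.0 to 244 with a median of 121 in Lefty-high cells without FGF4, against 17.0 to 236 with a median of 110.0 in Lefty-low cells. At 5 ng/ml the medians were 96.0 against 114, and at 50 ng/ml 102.5 against 113. The share of cells above the upper quartile of their library was 41.7% of Lefty-high cells (exact interval 25.5 to 59.2%) against 18.4% (13.0 to 24.9%) without FGF4. At 5 ng/ml it was 9.86% (4.06 to 19.3%) against 27.2% (22.6 to 32.2%). At 50 ng/ml it was 20% (11.9 to 30.4%) against 28.3% (23.9 to 33.0%). Summed S-phase UMIs had medians of 62.5, 87.0 and 84.5 in Lefty-high cells against 77.0, 86.0 and 83.0 in Lefty-low cells. Ranked on Lefty2 alone, the G2/M median at 5 ng/ml was -0.02.

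Of the genes of G1, Cdkn1a (p21), an inhibitor of cyclin-dependent kinases, was higher at each dose, at 129 CPM in Lefty-high cells against 113 CPM in Lefty-low cells without FGF4, 136 against 81.9 CPM at 5 ng/ml, and 97.3 against 69.0 CPM at 50 ng/ml. Its ratios were 1.14 (1.04 to 1.254), 1.66 (1.54 to 1.78) and 1.41 (1.30 to 1.53). Ccnd3 was lower, with 0.615 (0.528 to 0.712), 0.768 (0.697 to 0.844) and 0.820 (0.750 to 0.896), and Ccnd2 had 0.702 (0.403 to 1.15), 0.567 (0.483 to 0.661) and 0.660 (0.579 to 0.749). Ccnd1, the most abundant of the D cyclins by UMIs, had ratios of 1.06, 0.917 and 0.978. Of 12 p53 targets 11 were measured, with medians of 0.12, 0.16 and 0.06, and Btg2, an antiproliferative gene, had ratios of 1.58 (1.34 to 1.86), 1.39 (1.18 to 1.64) and 1.23 (1.02 to 1.46).

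**Figure D5:**
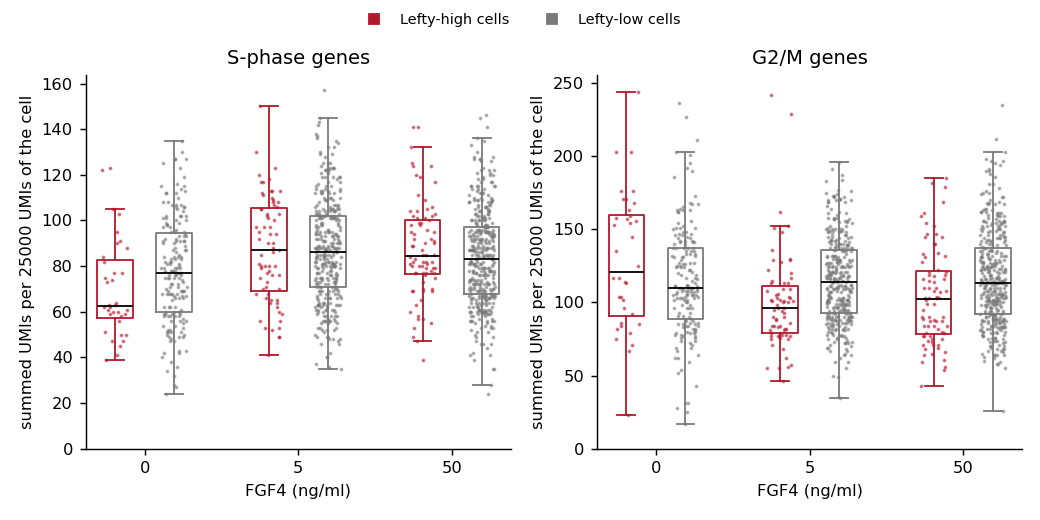
Summed UMIs of S-phase genes (left) and G2/M genes (right) per 25000 UMIs of each cell (y axis), Lefty-high cells left and Lefty-low cells right at each FGF4 dose; points are cells, boxes the quartiles and whiskers reach 1.5 box lengths. The G2/M median of Lefty-high cells is above that of Lefty-low cells without FGF4 (121 against 110.0) and below it at 5 ng/ml (96.0 against 114) and 50 ng/ml (102.5 against 113).

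Markers of other cell states were read beside these results. Genes of 2-cell-like cells were nearly missing from Lefty-high cells, with summed levels of 0.488, 0.143 and 0.802 CPM against 57.4, 5.42 and 59.6 CPM in Lefty-low cells. In Lefty-low cells a single cell held 49.9%, 92.9% and 70.1% of the Zscan4c UMIs, so this difference rests on very few cells. Primitive endoderm markers Gata6, Gata4, Sox17 and Pdgfra were under 2 CPM in both groups, and 6, 5 and 4 of 16 genes of the list were measured, with medians of -0.46, -0.09 and -0.17. Their summed level was 160.1, 145 and 129.7 CPM in Lefty-high cells against 206, 156 and 143 CPM in Lefty-low cells. Of 9 trophectoderm genes 2, 4 and 3 were measured, and Elf5, Gata3 and Hand1 were under 1 CPM in both groups of all libraries. Cdx2, a trophectoderm regulator, had ratios of 0.936 (0.460 to 1.75), 2.14 (1.71 to 2.67) and 1.15 (0.915 to 1.44), past 1.5-fold at 5 ng/ml, where Tead4 was that much lower, and Eomes was past it at 50 ng/ml. The summed level of the list was 73.9, 78.7 and 63.7 CPM in Lefty-high cells against 67.4, 57.0 and 56.0 CPM in Lefty-low cells, with ratios of 1.10 (0.965 to 1.24), 1.38 (1.26 to 1.52) and 1.14 (1.03 to 1.26). Its median log2 ratios were -0.05, 0.37 and 0.20, and at each dose the sign changed under at least 1 alternative setting. The part of these markers in the results above was not tested. The neuroectoderm list had medians of 0.15, -0.26 and 0.29 over 4, 3 and 3 of 8 genes. Its sign depended on the setting: without FGF4 the median was -0.57 over members of at least 20 CPM, and at 50 ng/ml it was -0.08 with doublets left out and -0.13 when cells were ranked on Lefty2 alone.

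Glycolytic genes were somewhat higher at all doses. All 14 were measured, 10 had an interval above 1 and 0 below it at each dose, and the medians were 0.22, 0.13 and 0.14. Among all genes of at least 5 CPM, 10.2%, 11.2% and 10.1% had an interval above 1. Ldha, which makes lactate, had ratios of 1.37 (1.32 to 1.42), 1.20 (1.17 to 1.22) and 1.15 (1.13 to 1.18), and Pgk1 1.53 (1.45 to 1.61), 1.33 (1.28 to 1.38) and 1.19 (1.15 to 1.24), in both highest without FGF4. Past 1.5-fold were Pdk1, Slc2a1 and Pgk1 without FGF4. Heat shock genes had medians of -0.14, -0.06 and -0.03, LIF and STAT3 genes -0.08, -0.17 and -0.17, and mitochondrially encoded genes 0.07, -0.01 and 0.05, with 0 past 1.5-fold in these 3 lists. DNA methylation genes had medians of -0.17, -0.12 and -0.09 and imprinted genes 0.14, 0.01 and -0.02, among which Cdkn1c had ratios of 1.96 (1.65 to 2.32), 1.41 (1.23 to 1.60) and 1.35 (1.19 to 1.53). BMP genes had medians of 0.24, -0.90 and -0.47 over 3, 4 and 4 genes, and G1 cyclins and inhibitors of 0.09, -0.12 and -0.03.

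Lefty-high cells were about as varied among themselves as Lefty-low cells. The mean distance between pairs of cells (1 minus the Pearson correlation of log2(UMIs + 1), thinned to 25000 UMIs) was 0.278, 0.271 and 0.265 in Lefty-high cells against 0.275, 0.270 and 0.266 in Lefty-low cells. The distance between a Lefty-high cell and a Lefty-low cell was 0.278, 0.272 and 0.266, close to that among Lefty-high cells. The sign of the small difference at 50 ng/ml depended on the kind of correlation.

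The leading genes of a single dose added a few not described so far. Taok3, a kinase of the MAP kinase cascade, had ratios of 2.11 (1.55 to 2.83), 2.13 (1.74 to 2.60) and 1.26 (0.983 to 1.59). Lzts2, a regulator of beta-catenin localisation, had ratios of 1.71 (1.29 to 2.25), 1.38 (1.10 to 1.71) and 2.18 (1.79 to 2.64). Calcoco2, an autophagy receptor, was lower at all doses, at 81.7 CPM in Lefty-high cells against 249 CPM in Lefty-low cells without FGF4, 7.02 against 33.2 CPM at 5 ng/ml, and 9.49 against 17.9 CPM at 50 ng/ml. Its ratios were 0.328 (0.293 to 0.367), 0.212 (0.156 to 0.282) and 0.529 (0.409 to 0.676). At 50 ng/ml the typical cell did not differ, with a Calcoco2 median of 0 in both groups. A Calcoco2 UMI was present there in 42.5% of Lefty-high cells against 42.1% of Lefty-low cells. Mras, a Ras-family GTPase, was lower too, with 0.302 (0.197 to 0.446), 0.332 (0.191 to 0.542) and 0.475 (0.276 to 0.770), and Adap1 had 0.529 (0.422 to 0.657), 0.358 (0.266 to 0.473) and 0.569 (0.440 to 0.725). Without FGF4, Tuba3a had 0.425 (0.319 to 0.556) and Crxos 0.361 (0.247 to 0.512), and at 50 ng/ml their ratios were 1.10 (0.910 to 1.33) and 1.13 (0.728 to 1.69). Slamf1, a surface receptor, had ratios of 1.21 (1.01 to 1.43), 1.20 (0.951 to 1.51) and 2.12 (1.85 to 2.43), with 59.4% and 39.7% of the UMIs of Lefty-high cells in 1 cell at 0 and 50 ng/ml. Exoc1, a subunit of the exocyst, had ratios of 1.37 (1.22 to 1.53), 0.493 (0.435 to 0.557) and 0.460 (0.406 to 0.520), above 1 without FGF4 and below it with FGF4. Without FGF4 a single cell held 35.3% of the Exoc1 UMIs of Lefty-high cells. On the per-cell scale used above, the Exoc1 median there was lower, at 0.218 in Lefty-high cells against 0.265 in Lefty-low cells. An Exoc1 UMI was present in 86.1% of Lefty-high cells against 93.9% of Lefty-low cells, so its direction at that dose depended on the measure. Hook2 had 0.551 (0.437 to 0.689), 0.822 (0.728 to 0.925) and 0.532 (0.443 to 0.635), and Exoc3l 1.03 (0.534 to 1.85), 0.645 (0.485 to 0.845) and 0.521 (0.414 to 0.648). Without the top 5% of cells the ratios of Exoc1, Hook2 and Exoc3l at 50 ng/ml were 0.683, 0.820 and 0.475. For Hook2 without FGF4 the median per cell ran the other way, at 0.158 in Lefty-high cells against 0.120 in Lefty-low cells. A Hook2 UMI was present there in 77.8% of Lefty-high cells against 77.7% of Lefty-low cells. Single cells held 26.4% of the Hook2 UMIs of Lefty-high cells and 16.5% of those of Lefty-low cells at that dose.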

How the data were processed

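Single-cell 3′ gene expression was measured in 3 libraries (10x Genomics v3.1), 1 per FGF4 dose. The authors deposited whole-number UMI counts per gene and cell barcode, made with Cell Ranger 4.0.0 per the file headers and on mm10 per the submitters' processing notes. Other steps before deposit are not given in the sources used here. Cells were kept at up to 10% mitochondrial UMIs and a total within 3-fold of the library median, which left out 14, 168 and 177 barcodes at 0, 5 and 50 ng/ml. Doublets were called with Scrublet in scanpy 1.11.5 (12, 7 and 26 barcodes) and kept. UMIs were summed over the 36, 71 and 80 Lefty-high cells and over Lefty-low cells (the bottom 50% by Lefty) and given as CPM. Ratios have exact conditional binomial 95% intervals, which cover counting error only, since cells are not replicates. Shares of cells have exact binomial 95% intervals that take the cells of 1 library as separate draws, not as replicates of a dose. With 1 library per dose no p-value is given.

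A gene was called at 1.5-fold or more with at least 20 CPM in the higher group, and listed genes were measured at 5 CPM or more. For log2 values, 0 UMIs were set to a floor of 3 UMIs. Sums per cell were read after thinning to 25000 UMIs. Named genes were the 12 in each direction with the largest smallest ratio among those with intervals on 1 side of 1 in all 3 libraries, the 6 in each direction with the largest ratio at each dose, the members of the lists and the genes within 200 kb of Lefty1 or Lefty2, without predicted and ribosomal protein genes; some genes that meet these rules are not reported here. The cells and lists were chosen with earlier results of these data known. Gene positions came from GENCODE M21, which held 32235 of 32285 gene IDs. Calculations used Python 3.11.15, numpy 2.4.6, scipy 1.17.1 and pandas 2.3.3 and were tested on simulated data. Alternatives were other rankings, cell filters, comparison cells, thresholds and scalings. The step that leaves out the top 5% of cells of each gene was added after seeing the data.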

Additional observations from a re-analysis of the deposited data

Results flagged for a closer look

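In Noa1, Tulp3 and Stra8 the ratio of Lefty-high cells to Lefty-low cells was past 1.5-fold in opposite directions at different doses. The difference between doses was not tested. Each of these genes had cells far above the median of their group, so the ratio without the top 5% of cells of each group is given beside each.

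Noa1, a mitochondrial GTPase, had ratios of 3.827 with no FGF4, against 0.5803 at 5 and 0.5955 at 50 ng/ml. At 0, 5 and 50 ng/ml its medians per cell were 0.273 against 0.214, 0.284 against 0.268 and 0.286 against 0.278 UMIs per 10000 in Lefty-high cells against Lefty-low cells. Without the top 5% of cells the ratios were 1.59, 0.978 and 0.934.

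Tulp3, which carries receptors into cilia, had ratios of 0.4814 without FGF4 and 1.989 at 5 ng/ml, and 0.629 and 1.05 without the top 5% of cells. Stra8, a gene of meiotic entry, had ratios of 0.488 at 5 ng/ml and 1.715 at 50 ng/ml, and 0.541 and 1.55 without the top 5% of cells.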

How the results depend on the processing

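No paired analysis was possible because each dose is 1 library. Of 1384 alternative values, 1206 stayed within their counting interval or within 1.5 times the count. The number of genes past 1.5-fold without FGF4 was 84 against all other cells, 49 at a minimum of 50 CPM, 655 at a looser fold limit, 29 at 2-fold, 3713 with no minimum, 512 when thinned to 25000 UMIs and 77 for the top 20% of cells. At 5 ng/ml it was 56, 28, 419, 14, 3802, 196 and 36 in the same order, and 37 when ranked on Lefty2 alone. At 50 ng/ml it was 39, 18, 309, 13 and 3540 for the first 5 of these, 25 for the top 20% and 34 on Lefty2 alone. Ranking on Lefty2 alone kept 10 of 49, 10 of 40 and 12 of 34 higher genes, and on Lefty1 alone 34, 32 and 20; many cells tie at 0 Lefty2 UMIs, so Lefty-low cells are partly arbitrary there.

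On Lefty2 alone the Nodal ratio was 1.015 at 5 ng/ml and 1.146 at 50 ng/ml, the naive median at 5 ng/ml -0.04259 and the G2/M median at 5 ng/ml -0.02137. The difference in distance was 0.007603, 0.005753 and 0.003931 with Spearman correlation, the last of opposite sign to the Pearson value. In all, 90 ratios or list medians changed sign, 29 of them on Lefty2 alone, 16 when thinned, 10 over list members of at least 20 CPM and 10 for the top 20% of cells. The lists with most changes over the doses and settings were the imprinted genes with 9, trophectoderm and Smads and partners with 8 each, and formative and neuroectoderm genes with 7 each. In 14 of the 90 the interval of the reported value (for a list, the median bounds of its genes) lay wholly on 1 side of no difference, and these follow. On Lefty2 alone they were Tulp3 0.9751, the G1 list 0.05827, the p53 list -0.1393 and the trophectoderm list -0.004692 at 5 ng/ml, and Gadd45g 0.9628, the p53 list -0.07199, the ERK list 0.02662 and the general pluripotency list 0.01167 at 50 ng/ml. When thinned they were Fgf4 1.126 and Nanog 1.054 at 50 ng/ml and the primitive endoderm list 0.1151 without FGF4. Without the top 5% of cells this was Nanog at 1.006 at 50 ng/ml. Nanog was 1.004 on Lefty1 alone at 50 ng/ml, and the mitochondrial list -0.009059 without a cell filter at 0 ng/ml. The cause was not tested. With 36 to 80 Lefty-high cells, single cells limit genes of few UMIs, and intervals do not cover the spread between cultures.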

Other observations

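A pair of gene lists was written after the leading genes had been seen, so their values are a description and lend no support to them. Of 25 genes induced by low oxygen, 21, 20 and 20 reached 5 CPM, with median log2 ratios of 0.46, 0.25 and 0.19. Of these 9, 3 and 2 were at least 1.5-fold higher and 0, 1 and 1 lower. Over all genes of at least 5 CPM, 3.27%, 1.95% and 1.71% were that much higher and 3.39%, 1.83% and 1.11% that much lower. Bnip3, Slc16a3 and Ddit4, leading genes seen before the list was written, are members. The 2 higher at 50 ng/ml were Ddit4 and Slc16a3. Pdk1, Slc2a1 and Pgk1, among those higher without FGF4, are the genes already named for glycolysis. Ndrg1, a stress-induced gene, had ratios of 3.15 (2.08 to 4.73), 1.24 (0.732 to 2.01) and 1.57 (0.984 to 2.44). Pfkfb3, which makes an activator of glycolysis, had 1.93 (1.28 to 2.87), 1.34 (0.918 to 1.92) and 1.23 (0.841 to 1.76), and Egln1, an oxygen-sensing hydroxylase, 1.69 (1.26 to 2.24), 0.879 (0.648 to 1.17) and 1.08 (0.826 to 1.40). Vegfa, the angiogenic ligand, stood on the other side, with 0.990 (0.699 to 1.37), 0.514 (0.316 to 0.798) and 0.488 (0.292 to 0.773). Summed per cell after thinning, the list had medians of 59.0, 76.0 and 77.5 UMIs per 25000 in Lefty-high cells against 48.0, 67.0 and 69.0 in Lefty-low cells.

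Of 24 targets of ATF4, the factor of the amino acid and integrated stress response, 21, 21 and 22 were measured. Of these 10, 4 and 0 were at least 1.5-fold lower and 0, 0 and 1 higher, with medians of -0.44, -0.30 and -0.18. Over all genes of at least 5 CPM, 3.39%, 1.83% and 1.11% were that much lower and 3.27%, 1.95% and 1.71% that much higher. Counting intervals lay below 1 for 15, 14 and 14 genes, where 12.8%, 14.0% and 12.5% of all genes of at least 5 CPM did. Mthfd2, Cth and Nupr1 are members. Asns, which makes asparagine, was at 332 CPM in Lefty-high cells against 451 CPM in Lefty-low cells without FGF4, 275 against 361 CPM at 5 ng/ml, and 338 against 403 CPM at 50 ng/ml, with ratios of 0.735 (0.694 to 0.779), 0.763 (0.727 to 0.801) and 0.841 (0.806 to 0.877). Trib3, a pseudokinase of the same response, had 0.463 (0.312 to 0.666), 0.673 (0.523 to 0.856) and 0.784 (0.640 to 0.954), and Chac1, which degrades glutathione, 0.606 (0.343 to 1.01), 0.656 (0.492 to 0.861) and 0.755 (0.594 to 0.949). Atf4 itself had ratios of 0.761 (0.690 to 0.837), 0.901 (0.841 to 0.964) and 0.912 (0.855 to 0.972). Summed per cell, the list had medians of 44.5, 48.0 and 56.5 in Lefty-high cells against 55.0, 59.0 and 63.0 in Lefty-low cells. In both lists the medians lay closest to 0 at 50 ng/ml, and whether the doses differ was not tested.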
